A study of Mus musculus with 28 samples.

Results

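The Fc gamma receptor genes were examined in chromatin immunoprecipitation sequencing (ChIP-seq) data of mouse bone marrow-derived macrophages. The 5 genes were Fcgr1, Fcgr2b, Fcgr3, Fcgr4 and Fcer1g, of 21900 protein-coding genes in the mouse annotation. A peak belonged to one of them where it was the nearest protein-coding gene and its span lay within 50 kb. By this rule 27 of 63313 peaks of acetylated histone H3 lysine 27 (H3K27ac, a mark of active promoters and enhancers) and 10 of 8394 peaks of the glucocorticoid receptor (GR, a ligand-activated transcription factor) belonged to these genes. Fcgr2b had 10 H3K27ac peaks, Fcgr4 6, Fcgr1 and Fcgr3 5 each and Fcer1g 1.

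Fc gamma receptors bind the constant part of IgG and let a macrophage respond to antibody-coated particles and immune complexes. Fcgr1 (high affinity), Fcgr3 (low affinity) and Fcgr4 (intermediate affinity) are activating receptors that signal through the immunoreceptor tyrosine-based activation motif of a shared partner, the gamma chain encoded by Fcer1g. Fcgr2b is the inhibitory receptor of the family and carries an inhibitory motif in its own tail, which recruits phosphatases. The balance of activating and inhibitory receptors on a macrophage is known to set how strongly it responds to immune complexes.

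The cells were primary macrophages from male C57BL/6 mice of 8 to 10 weeks, differentiated for 5 days with L-cell conditioned medium. They received vehicle, 500 nM corticosterone (Cort, the natural glucocorticoid of mice), 100 nM dexamethasone (Dex, a synthetic glucocorticoid) or 10 ng/ml interleukin 4 (IL4, the cytokine of alternative activation, which signals through STAT6), for 24 h. The titles of the H3K27ac vehicle libraries give no time. Each of the 4 groups had 3 H3K27ac libraries. For GR, 3 libraries were from IL4-treated cells and 4 from each other group. The labels place GR replicates 1 and 2 in batch 1, and replicates 3 and 4 and every IL4 library in batch 2. The labels do not say whether libraries of a group came from separate mice, so p-values measure the spread between libraries, which may be technical.

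H3K27ac libraries held 6829787 to 15695771 counts in peaks and GR libraries 900063 to 1981582. All 8 macrophage markers examined had H3K27ac peaks, with a summed level of 2957 to 4018 CPM across the libraries (CPM, the counts of each library scaled to a common total). Of the neutrophil list 3 of 7 genes had such signal, with a summed level of 7.62 to 17.9 CPM over all libraries and none at Ly6g, Mpo, S100a9 or Ngp. In bulk chromatin, fewer cells with a mark and less mark per cell cannot be told apart.

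The promoters of the receptor genes are shown because each lay inside an H3K27ac peak, and because the treatments act through GR and STAT6. The sequences come from RefSeq (GRCm38.p6, the build named mm10 in the files), run 5′ to 3′ on the strand of the gene from 250 bases before to 20 bases after the start of transcription, and were found for all 5 genes. Capitals mark matches, on either strand, to the GR monomer motif AGAACA or the PU.1 core GAGGAAG. PU.1 is a lineage factor of macrophages.
Fcgr2b promoter, chr1:170976052-170976321, minus strand: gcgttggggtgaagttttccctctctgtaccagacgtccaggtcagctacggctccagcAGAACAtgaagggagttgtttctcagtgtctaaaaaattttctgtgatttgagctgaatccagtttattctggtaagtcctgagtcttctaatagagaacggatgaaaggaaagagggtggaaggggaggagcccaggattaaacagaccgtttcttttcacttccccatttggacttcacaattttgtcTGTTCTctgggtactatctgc
Fcgr3 promoter, chr1:171059384-171059653, minus strand: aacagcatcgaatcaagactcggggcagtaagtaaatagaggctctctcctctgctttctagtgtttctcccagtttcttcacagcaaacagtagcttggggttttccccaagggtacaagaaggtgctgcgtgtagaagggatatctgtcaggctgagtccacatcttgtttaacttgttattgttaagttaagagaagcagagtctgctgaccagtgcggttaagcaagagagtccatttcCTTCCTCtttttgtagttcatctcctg
Fcgr4 promoter, chr1:171018676-171018945, plus strand: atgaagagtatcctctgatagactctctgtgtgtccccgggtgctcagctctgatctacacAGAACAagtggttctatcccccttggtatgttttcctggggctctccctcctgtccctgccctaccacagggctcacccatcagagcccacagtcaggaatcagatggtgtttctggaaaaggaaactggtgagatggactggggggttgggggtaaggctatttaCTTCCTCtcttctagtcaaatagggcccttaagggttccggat
Fcgr1 promoter, chr3:96293950-96294219, minus strand: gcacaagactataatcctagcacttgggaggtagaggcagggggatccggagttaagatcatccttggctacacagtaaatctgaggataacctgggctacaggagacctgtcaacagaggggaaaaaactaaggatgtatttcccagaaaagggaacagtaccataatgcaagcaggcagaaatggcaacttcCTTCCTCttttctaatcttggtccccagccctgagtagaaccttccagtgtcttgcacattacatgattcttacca
The PU.1 core, which reads CTTCCTC on these strands, occurred in the promoters of Fcgr1, Fcgr3 and Fcgr4, the activating receptors. Of 32851 mouse promoters, 13.6% held it. Motifs were searched over 300 bases of each promoter, which run further past the start of transcription than the letters shown. The PU.1 core was not found in those of Fcgr2b and Fcer1g. Only its exact letters were searched, and looser forms of the core were not. The GR monomer motif occurred at 2 places in the Fcgr2b promoter and at 1 in the Fcgr4 promoter, against 19.0% of all promoters with a match. None of the 5 promoters matched the STAT6 spacing TTCNNNNGAA, which 7.0% of promoters held. A match describes letters and not binding.

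In vehicle-treated cells the gamma chain gene had the densest H3K27ac and the inhibitory receptor gene the thinnest. Summed over the peaks of a gene and divided by their length, the level was 30.4 ± 3.48 CPM per kb (SD, n = 3) at Fcer1g, 21.6 ± 5.38 at Fcgr4, 16.8 ± 5.21 at Fcgr1, 9.35 ± 0.891 at Fcgr3 and 4.35 ± 0.424 at Fcgr2b. Fcgr4 and Fcgr1 were neighbours in this order that differed by less than their SDs. After IL4 the order changed at its lower end: Fcgr2b reached 14.5 ± 0.409 CPM per kb (SD, n = 3), beside 13.8 ± 0.496 at Fcgr3 and 12.6 ± 5.62 at Fcgr1.

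**Figure D1:**
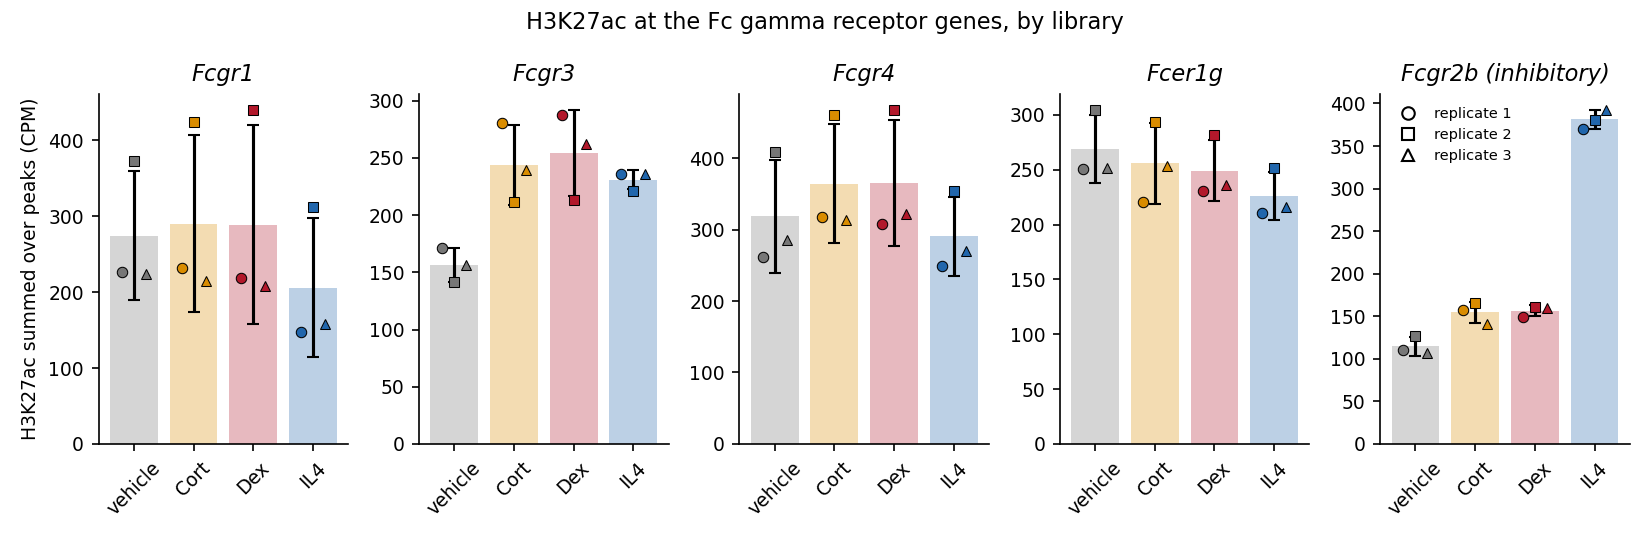
H3K27ac summed over the peaks of each gene, in CPM (vertical axis), for the 4 groups. Points are libraries, with their shape giving the replicate number, and bars and error bars are the mean and SD of 3 libraries. The 3 IL4 libraries lie between 371 and 392 at Fcgr2b, above every other library, and the replicate 2 libraries are the highest of each group at Fcgr1, Fcgr4 and Fcer1g.

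IL4 was compared with vehicle to see which receptor genes changed acetylation in alternative activation. H3K27ac at Fcgr2b rose 3.33-fold, and at Fcgr3, an activating gene beyond Fcgr4 on the same chromosome, 1.48-fold. At Fcgr1, Fcgr4 and Fcer1g the sums did not pass the test. The Fcgr2b sum was 110.1, 127 and 106 CPM in the vehicle libraries and 371, 381 and 392 CPM after IL4. These groups lay far apart, with a log2 fold change of 1.73 ± 0.09 (SE; adjusted p = 1.43e-06, edgeR's quasi-likelihood test with Benjamini-Hochberg adjustment over 13130 genes, of which 27.7% were called). For Fcgr3 the sum was 172, 142 and 156 CPM with vehicle and 236, 221 and 236 CPM after IL4, and every IL4 library lay above every vehicle library (log2 fold change 0.56 ± 0.13, SE; adjusted p = 0.00756, edgeR).

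At the level of single peaks, IL4 raised 10 of the 26 tested peaks and lowered none, where 14.7% of all tested peaks were called higher and 12.9% lower. Fcgr2b had 8 of the 10, of its 10 tested peaks, with log2 fold changes of 0.80 to 2.43, and Fcgr3 had the other 2. The median log2 fold change over the 26 peaks was 0.56, against -0.02 over all 59881 tested peaks. The Fcgr2b promoter peak, chr1:170971543-170977903, held 28.1, 35.9 and 27.7 CPM with vehicle and 98.5, 98.9 and 106 CPM with IL4, without overlap (log2 fold change 1.73 ± 0.16, SE; adjusted p = 1.24e-05, edgeR). It covers the start and the first part of the gene.

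The IL4 response at Fcgr2b ran through the gene and its surroundings. In the gene body, chr1:170966549-170970363 went from 14.0, 14.1 and 11.8 CPM to 59.9, 62.9 and 68.5 CPM, a log2 fold change of 2.27 ± 0.19 (SE; adjusted p = 6.57e-06, edgeR). At the 3′ end of the gene, chr1:170959600-170964999 went from 23.0, 24.7 and 21.7 CPM to 78.4, 84.2 and 94.4 CPM, a log2 fold change of 1.89 ± 0.14 (SE; adjusted p = 2.83e-06, edgeR). This peak had the smallest p of the gene. It held 30.6, 28.6 and 32.5 CPM with Cort and 31.0, 25.3 and 34.3 CPM with Dex, all above vehicle, with log2 fold changes of 0.40 ± 0.14 and 0.38 ± 0.14 that were not called (adjusted p = 0.214 and 0.143, edgeR) except when replicate numbers entered the fit as blocks (adjusted p = 0.0277 and 0.0242, edgeR). The highest fold, a log2 fold change of 2.43 ± 0.35 (SE; adjusted p = 0.000256, edgeR), was at the weak intragenic peak chr1:170965104-170966430, with 0.989 to 1.23 CPM in vehicle and 4.69 to 7.01 CPM in IL4 libraries.

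Upstream of Fcgr2b, chr1:170984288-170988009 lies 8.22 kb before the gene and rose from 15.2, 28.2 and 18.5 CPM to 57.5, 71.3 and 57.7 CPM (log2 fold change 1.59 ± 0.31, SE; adjusted p = 0.00213, edgeR). The next peak out, chr1:170988405-170989586, rose by 1.36 ± 0.26 on the log2 scale (SE; adjusted p = 0.00192, edgeR). The 2 peaks of Fcgr2b that were not called, chr1:170982909-170983755 and chr1:170992512-170992797, held at most 5.34 CPM in any library, with log2 fold changes of 0.81 and 0.69. With replicate numbers as blocks chr1:170982909-170983755 was called higher, at 0.84 ± 0.25 (SE; adjusted p = 0.0082, edgeR), and chr1:170992512-170992797 was not (adjusted p = 0.158, edgeR). Beyond them, toward Fcgr4, chr1:170996065-171000644 held 103, 166 and 111 CPM with vehicle, 127, 162 and 125 CPM with Cort, 118, 164 and 127 CPM with Dex and 122, 150.1 and 125 CPM with IL4, so these groups overlapped (log2 fold change with IL4 0.06 ± 0.19, SE; adjusted p = 0.851, edgeR). Gm10522, a long noncoding RNA gene, lies nearer to this peak and to the 4 upstream Fcgr2b peaks than any protein-coding gene.

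**Figure D2:**
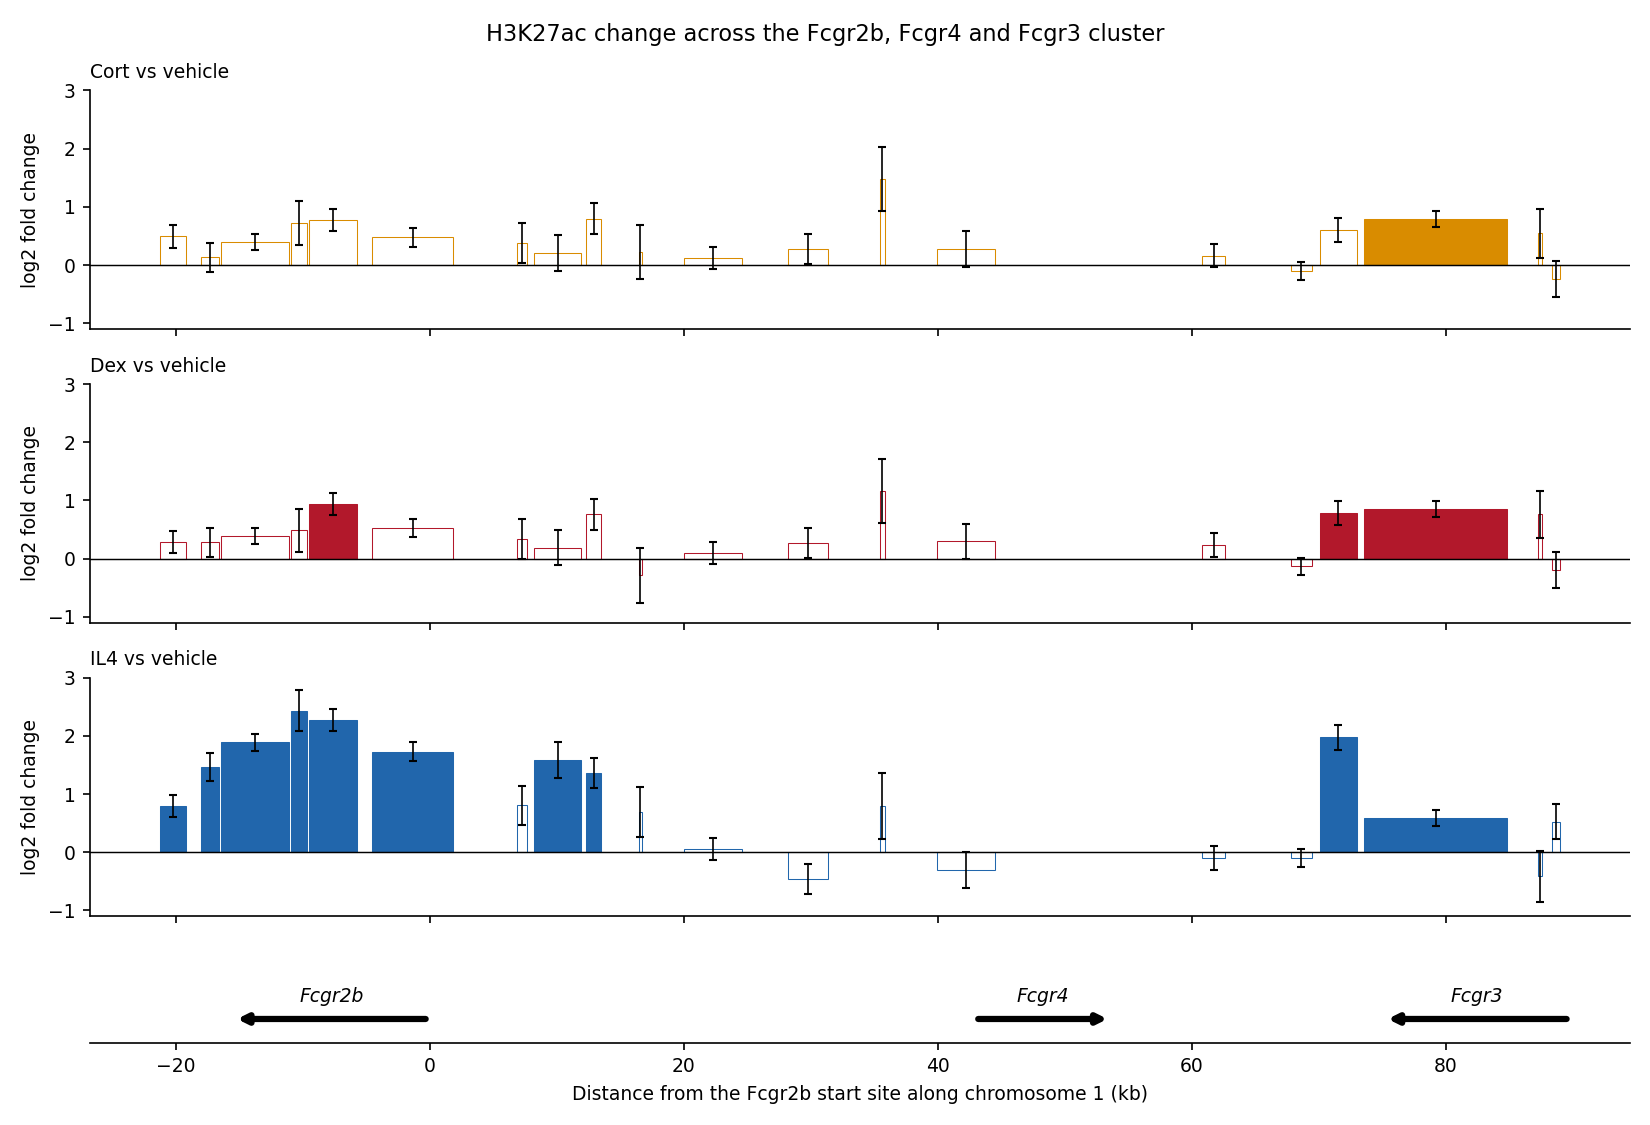
Log2 fold change of H3K27ac against vehicle (vertical axes, mean with SE) at each tested peak of Fcgr2b, Fcgr4 and Fcgr3, drawn to scale by distance from the Fcgr2b start site in kb, with arrows for the direction of each gene. Filled bars passed an adjusted p of 0.05 and open bars did not: IL4 raised 8 peaks around Fcgr2b and 2 at Fcgr3, with none called at the Fcgr4 peaks between them, and Dex raised 3 peaks and Cort 1.

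Both steroids were compared with vehicle to see whether glucocorticoids changed the same genes. H3K27ac at Fcgr3 rose 1.56-fold with Cort and 1.62-fold with Dex, and at Fcgr2b 1.35-fold and 1.37-fold. The Fcgr3 sum was 281, 211 and 239.7 CPM with Cort and 287, 214 and 262 CPM with Dex, against 142 to 172 CPM with vehicle. No steroid library overlapped the vehicle libraries, with log2 fold changes of 0.64 ± 0.13 for Cort (SE; adjusted p = 0.0256, edgeR) and 0.70 ± 0.13 for Dex (SE; adjusted p = 0.00873, edgeR). The Fcgr2b sum was 157, 165 and 141 CPM with Cort and 149, 160.4 and 160.1 CPM with Dex, above the vehicle range of 106 to 127 CPM. Its log2 fold changes were 0.43 ± 0.09 for Cort (SE; adjusted p = 0.0303, edgeR) and 0.45 ± 0.09 for Dex (SE; adjusted p = 0.0136, edgeR). Of all genes 2.64% were called with Cort and 7.11% with Dex. The 3 treatments were set against the same vehicle libraries.

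The steroid calls on sums changed when single libraries were left out. For Cort the Fcgr2b call was lost without vehicle replicate 1 or 3, Cort replicate 1 or 2, or IL4 replicate 1 or 3 (adjusted p = 0.0508 to 0.141, edgeR), and the Fcgr3 call without any single vehicle library or without Cort replicate 1 or 3 (adjusted p = 0.052 to 0.109, edgeR). For Dex the Fcgr2b call was lost without vehicle replicate 3 or Dex replicate 3 (adjusted p = 0.067 and 0.0522, edgeR). The Cort calls were also lost for Fcgr2b with low-count peak scaling (log2 fold change 0.47, adjusted p = 0.0974, edgeR) and for Fcgr3 with total-count scaling (0.61, adjusted p = 0.064, edgeR). Over the fits without 1 library that lost a call, the fold changes on the log2 scale stayed at 0.38 to 0.43 for Fcgr2b with Cort, 0.40 to 0.43 for Fcgr2b with Dex and 0.53 to 0.72 for Fcgr3 with Cort. With the replicate number as a block, Fcgr2b stayed called with Cort and Dex (adjusted p = 0.00152 and 0.000589, edgeR). So did Fcgr3 (adjusted p = 7.1e-05 and 1.61e-05, edgeR), in a fit that called 16.6% of all gene sums with Cort and 25.5% with Dex.

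Among single peaks, Cort raised 1 of the 26 tested and Dex 3, and neither lowered any. Over all tested peaks 1.18% were called higher and 0.376% lower with Cort, and 2.90% and 2.35% with Dex. The peak raised by both was chr1:171049649-171060877, an 11229 bp peak that runs from the Fcgr3 start site past the 3′ end of the gene. It held 125, 101 and 115 CPM with vehicle, 222, 166 and 203 CPM with Cort, 230.2, 174 and 213 CPM with Dex and 170.3, 167 and 176 CPM with IL4, so each treated library lay above each vehicle library. The log2 fold changes were 0.80 ± 0.14 for Cort (SE; adjusted p = 0.0114, edgeR), 0.86 ± 0.14 for Dex (SE; adjusted p = 0.00369, edgeR) and 0.59 ± 0.14 for IL4 (SE; adjusted p = 0.00664, edgeR). Without vehicle replicate 2, vehicle replicate 3 or Cort replicate 1 the Cort call was lost (adjusted p = 0.067 to 0.0724, edgeR), as it was with the compared groups alone (adjusted p = 0.0571, edgeR). With the replicate number as a block the peak stayed called with both steroids (adjusted p = 6.85e-07 for Cort and 1.13e-07 for Dex, edgeR).

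Downstream of Fcgr3, chr1:171046160-171049074 stood 2.1 kb beyond the end of the gene and responded most to IL4. It held 4.94, 4.58 and 3.96 CPM with vehicle, 8.49, 6.40 and 5.60 CPM with Cort, 8.31, 6.90 and 7.95 CPM with Dex and 18.7, 14.1 and 19.9 CPM with IL4. The log2 fold change was 1.97 ± 0.21 for IL4 (SE; adjusted p = 3.38e-05, edgeR) and 0.79 ± 0.21 for Dex (SE; adjusted p = 0.0489, edgeR), and for Cort it was 0.60 ± 0.21 and not called (adjusted p = 0.216, edgeR, and 0.0427 with the replicate number as a block). The Dex call was lost in 8 of the 12 fits that left out 1 library (adjusted p = 0.0515 to 0.184, edgeR). It was also lost with total-count scaling, low-count peak scaling, no count filter or the compared groups alone (adjusted p = 0.088, 0.0502, 0.0542 and 0.0828, edgeR). The other 3 tested peaks of Fcgr3 passed in no treatment against vehicle.

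At Fcgr2b, Dex raised the gene-body peak chr1:170966549-170970363 to 24.8, 20.2 and 31.0 CPM, from 11.8 to 14.1 CPM with vehicle (log2 fold change 0.94 ± 0.19, SE; adjusted p = 0.0126, edgeR). With Cort it held 21.2, 18.7 and 28.2 CPM, a log2 fold change of 0.78 ± 0.19 that was not called (adjusted p = 0.0634, edgeR). The Fcgr2b promoter peak held 44.6, 47.9 and 34.95 CPM with Cort, overlapping vehicle, and 40.6, 51.0 and 40.1 CPM with Dex, above all vehicle libraries. Its log2 fold changes were 0.48 ± 0.16 and 0.52 ± 0.16, neither called (adjusted p = 0.178 and 0.0754, edgeR). A fit with the replicate number as a block, described with Fcgr1 and Fcgr4, called the promoter peak with Cort and Dex (adjusted p = 0.00708 and 0.00171, edgeR) and the gene-body peak with Cort (adjusted p = 0.00109, edgeR). Without vehicle replicate 3 or Dex replicate 3 the number of peaks called with Dex fell from 3 to 1.

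At Fcgr1 and Fcgr4 the libraries of each group differed by replicate number, and no treatment passed the test on their sums. The Fcgr1 sum was 227, 373 and 223 CPM with vehicle, 231, 424 and 214 CPM with Cort, 218, 439.6 and 208 CPM with Dex and 148, 312 and 158 CPM with IL4, in the order of replicates 1, 2 and 3. Replicate 2 was the highest library in all 4 groups, as it was for Fcgr4 and Fcer1g, and at Fcgr3 it was the lowest in all 4. The Fcgr4 sum was 261, 409 and 285 CPM with vehicle, 318, 460.0 and 314 CPM with Cort, 308, 467 and 322 CPM with Dex and 249, 353 and 270.03 CPM with IL4. All groups overlapped in both genes. The macrophage marker sum ran from 3150 to 4018 CPM in replicate 2 libraries and from 2957 to 3911 CPM in the others, and the dendritic marker sum from 117 to 263 CPM against 88.0 to 189 CPM. Their part in the replicate pattern was not tested.

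Libraries with the same number varied together across all peaks, and a fit with the replicate number as a block changed the calls at these genes. IL4 then lowered the Fcgr1 sum (223 to 373 CPM with vehicle, 148 to 312 CPM with IL4), with a log2 fold change of -0.46 ± 0.08 (SE; adjusted p = 0.000211, edgeR, block). It was -0.41 ± 0.39 without the block (adjusted p = 0.489, edgeR). IL4 also lowered Fcer1g in that fit, which held 251, 304 and 252 CPM with vehicle and 211, 251 and 216 CPM with IL4 (log2 fold change -0.25 ± 0.06, SE; adjusted p = 0.00389, edgeR, block), against -0.25 ± 0.13 without it (adjusted p = 0.185, edgeR). For the Fcgr4 sum the steroids gave 0.20 ± 0.06 each with the block (adjusted p = 0.0394 for Cort and 0.0252 for Dex, edgeR), and IL4 gave -0.12 ± 0.06 (adjusted p = 0.117, edgeR). Of all gene sums 16.6% were called with Cort, 25.5% with Dex and 46.9% with IL4 in this fit.

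Among peaks the block gave 8 of 26 higher with Cort (12.6% of all tested peaks called), 7 higher with Dex (20.3%) and 18 called with IL4 (43.5%), of which 11 were higher and 7 lower. The 7 that fell with IL4 were 4 of Fcgr1, 2 of Fcgr4 and that of Fcer1g. The Fcgr1 promoter peak, chr3:96289496-96295089, held 88.8, 139.7 and 80.9 CPM with vehicle, 89.6, 159 and 82.1 CPM with Cort, 86.2, 169.7 and 77.5 CPM with Dex and 48.3, 108 and 50.9 CPM with IL4, and for IL4 a log2 fold change of -0.63 with the block (adjusted p = 9.04e-06, edgeR) and -0.58 ± 0.37 without it (adjusted p = 0.281, edgeR). The strongest Fcgr1 peak, chr3:96298801-96303953, lies 4.83 kb upstream and held 99.1, 194 and 105 CPM with vehicle, 108, 214 and 109.7 CPM with Cort, 97.8, 223 and 104 CPM with Dex and 74.9, 164 and 85.3 CPM with IL4. With the block it gave -0.31 for IL4 (adjusted p = 0.00316, edgeR). The intragenic Fcgr1 peak chr3:96284351-96286336 held 7.42, 8.99 and 7.62 CPM with vehicle, 4.39, 9.95 and 5.04 CPM with Cort, 5.74, 9.79 and 4.96 CPM with Dex and 3.08, 7.68 and 4.73 CPM with IL4, and gave -0.66 for IL4 with the block (adjusted p = 0.0108, edgeR).

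The Fcgr4 promoter peak, chr1:171016020-171020596, held 88.9, 165 and 111 CPM with vehicle, 112, 201 and 127 CPM with Cort, 114, 209 and 124 CPM with Dex and 69.0, 131 and 95.6 CPM with IL4. Within each replicate number both steroid libraries were above and the IL4 library below the vehicle library. The log2 fold changes with the block were 0.27 for Cort (adjusted p = 0.0322, edgeR), 0.29 for Dex (adjusted p = 0.0158, edgeR) and -0.30 for IL4 (adjusted p = 0.00589, edgeR). The Fcgr4 peak with the smallest p of its gene, chr1:171011503-171011926, held 0.371, 0.736 and 0.372 CPM with vehicle, 0.566, 2.37 and 1.01 CPM with Cort, 0.489, 1.52 and 1.24 CPM with Dex and 0.738, 0.890 and 0.946 CPM with IL4, and was called with Cort in the blocked fit alone (adjusted p = 0.0324, edgeR). The Fcgr4 peak chr1:171012092-171012291 had too few counts for the test, at 0.124 to 1.12 CPM. The Fcer1g peak, chr1:171228618-171237458, whose level need not be that of 1 gene alone, held 227, 294 and 230.1 CPM with vehicle, 202, 277 and 246 CPM with Cort, 213, 268 and 223 CPM with Dex and 191, 236 and 205 CPM with IL4, and gave -0.24 for IL4 with the block (adjusted p = 0.0102, edgeR).

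Activating receptor genes were set against the inhibitory one within each library, which needs no scaling between libraries. The summed H3K27ac counts of Fcgr1, Fcgr3 and Fcgr4 were 6.00, 7.25 and 6.25 times those of Fcgr2b in the vehicle libraries, 5.27, 6.63 and 5.44 times with Cort, 5.46, 6.99 and 4.94 times with Dex and 1.71, 2.33 and 1.69 times with IL4. The IL4 libraries lay below every other library. The steroid libraries overlapped vehicle, although against the vehicle library of the same number the log2 ratio was lower by 0.13 to 0.20 with Cort and by 0.05 to 0.34 with Dex. The mean log2 ratio was 2.69 ± 0.14 (SD, n = 3) with vehicle, 2.52 ± 0.18 with Cort, 2.52 ± 0.26 with Dex and 0.92 ± 0.26 with IL4. The IL4 mean was thus 1.78 lower on the log2 scale than that of vehicle, as a description without a test.

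One activating gene at a time, the steroid means moved up for Fcgr3 and down for Fcgr4 and Fcgr1, within the spread of the libraries. For Fcgr3 over Fcgr2b the mean log2 ratio was 0.45 ± 0.26 (SD, n = 3) with vehicle, 0.65 ± 0.26 with Cort, 0.69 ± 0.27 with Dex and -0.72 ± 0.07 with IL4. Replicate by replicate it was 0.19 to 0.21 higher with Cort than with vehicle and 0.16 to 0.31 higher with Dex, while the Fcgr4 and Fcgr1 ratios were lower in every such pair. For Fcgr4 over Fcgr2b the means were 1.45 ± 0.22 with vehicle, 1.22 ± 0.24 with Cort, 1.199 ± 0.30 with Dex and -0.41 ± 0.26 with IL4 (SD, n = 3). For Fcgr1 over Fcgr2b, added after the data were seen, they were 1.22 ± 0.28 with vehicle, 0.84 ± 0.45 with Cort, 0.79 ± 0.58 with Dex and -0.98 ± 0.59 with IL4. With the strongest peak of each gene in place of the sums, every Dex library lay below every vehicle library (mean log2 ratio 3.46 ± 0.01 against 3.602 ± 0.07, SD, n = 3), and Cort overlapped vehicle. In the 3 ratios of single genes the steroid libraries overlapped vehicle and the IL4 libraries lay below all of them.

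**Figure D3:**
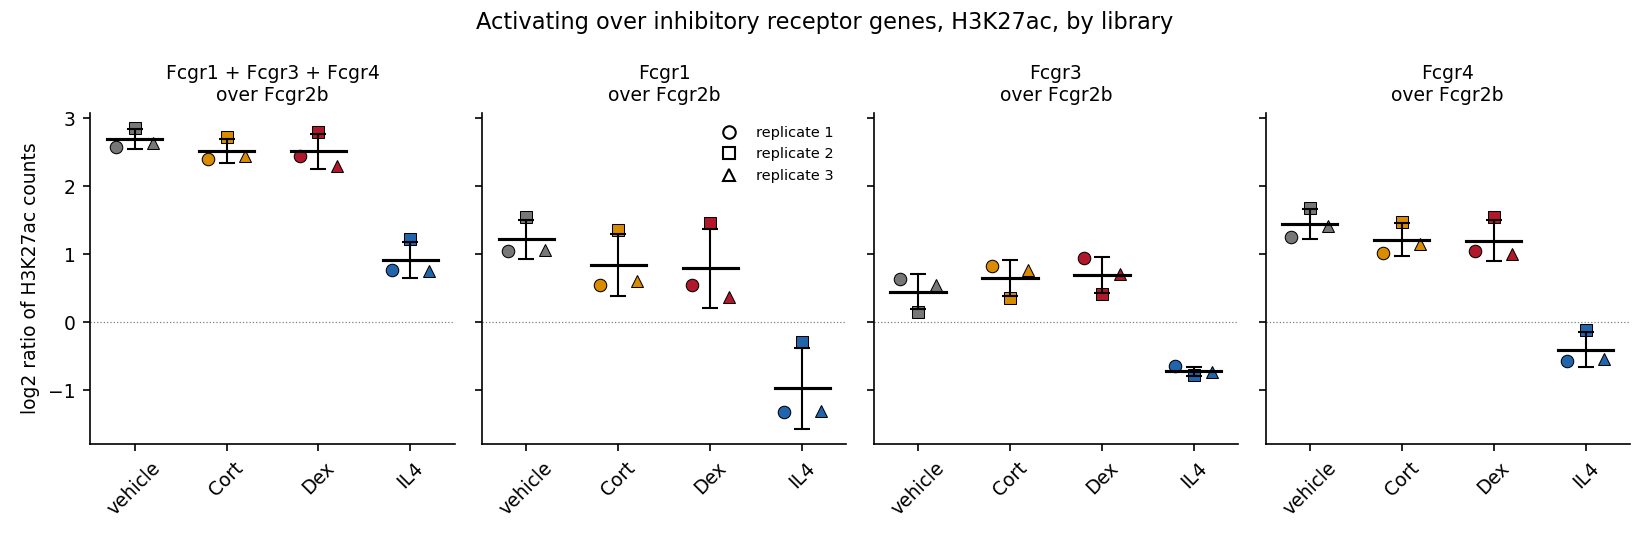
Log2 ratio of H3K27ac counts at activating receptor genes over Fcgr2b (vertical axes) in each library, for the 3 activating genes summed and one by one. Points are libraries, with their shape giving the replicate number, and lines and error bars are the mean and SD of 3 libraries. With IL4 each ratio drops below every vehicle library, to a mean of 0.92 for the sum, and the Fcgr3 ratio has means of 0.65 and 0.69 with the steroids against 0.45 with vehicle.

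Within the chromosome 1 cluster of Fcgr2b, Fcgr4 and Fcgr3, the inhibitory gene took 19.5 ± 0.748% (SD, n = 3) of the H3K27ac counts with vehicle, 20.3 ± 0.537% with Cort, 20.2 ± 1.24% with Dex and 42.3 ± 2.11% with IL4. The share of Fcgr4 was 53.5 ± 6.22% with vehicle and 32.0 ± 4.30% with IL4, and that of Fcgr3 27.003 ± 5.50% and 25.7 ± 2.27%. These 3 genes are related in sequence, and how reads that fit several places were handled is not given in the sources used here.

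Marker lists also moved between groups. The B cell list, with signal at 2 of 5 genes, summed to 186 to 230.2 CPM with vehicle, 124 to 177 CPM with Cort, 128 to 155 CPM with Dex and 98.1 to 157 CPM with IL4, while Fcgr2b, which B cells also express, was higher in all 3 treatments. Its part in the result was not tested. The dendritic list, with signal at 3 of 4 genes, went from 174 to 263 CPM with vehicle to 88.0 to 117 CPM with IL4. The macrophage list summed to 3282 to 3529 CPM with vehicle, 3629 to 4018 CPM with Cort, 3526 to 3982 CPM with Dex and 2957 to 3150 CPM with IL4. The neutrophil list was at 7.62 to 14.3 CPM with vehicle, 15.2 to 16.4 CPM with Cort, 16.5 to 17.9 CPM with Dex and 8.77 to 15.0 CPM with IL4. The fibroblast list, with signal at 1 of 4 genes and none at Col1a1, Col1a2 or Dcn, was at 58.5 to 63.9 CPM with vehicle, 71.2 to 88.0 CPM with Cort, 75.5 to 87.4 CPM with Dex and 76.0 to 92.4 CPM with IL4. With the steroids the macrophage, neutrophil and fibroblast lists thus ranged higher, as Fcgr3 and Fcgr2b did, while the B cell list ranged lower. The dendritic list overlapped vehicle, at 159 to 235 CPM with Cort and 183 to 212 CPM with Dex. The part of these lists in the steroid rise at Fcgr3 and Fcgr2b was not tested.

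Dex and Cort, at 100 nM and 500 nM, were compared with each other, although their doses differ. No receptor peak was called, as for all peaks (0% called of 59881, with 793 at an unadjusted p under 0.05), and no gene sum (0% of 13130), also with the block (0%). The difference of Dex minus Cort in log2 H3K27ac was 0.02 at Fcgr2b (95% confidence interval -0.18 to 0.22), 0.06 at Fcgr3 (-0.22 to 0.35), 0.01 at Fcgr4 (-0.49 to 0.50), -0.04 at Fcer1g (-0.32 to 0.25) and -0.01 at Fcgr1 (-0.86 to 0.84). With the block the difference was -0.02 ± 0.08 at Fcgr1 and 0.00 ± 0.06 at Fcgr4 (SE).

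Each steroid was also compared with IL4. Both left Fcgr2b lower than IL4 did, with log2 differences of -1.30 ± 0.09 for Cort (SE; adjusted p = 5.12e-06, edgeR) and -1.28 ± 0.09 for Dex (SE; adjusted p = 4.59e-06, edgeR). Of all gene sums 26.8% and 28.1% were called in these comparisons. Fcgr3 did not pass in either, at 0.08 ± 0.13 for Cort and 0.14 ± 0.13 for Dex (SE; adjusted p = 0.723 and 0.481, edgeR), with 95% confidence intervals of -0.21 to 0.36 and -0.15 to 0.42. Among peaks 7 were lower with Cort than with IL4 and 7 with Dex, and none was higher, where 13.7% and 14.6% of all peaks were called lower and 11.3% and 12.1% higher. In each comparison 6 of the 7 lay at Fcgr2b, and the other was chr1:171046160-171049074 downstream of Fcgr3. The large Fcgr3 peak was not called in either (adjusted p = 0.316 and 0.181, edgeR), although the blocked fit called it higher with Dex (adjusted p = 0.0162, edgeR).

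With the block, 16 peaks differed between Cort and IL4 (40.4% of all peaks called) and 18 between Dex and IL4 (42.7%), of which 7 and 8 were higher with the steroid. The sums of Fcgr1 and Fcgr4 were then higher with Cort than with IL4, by 0.51 ± 0.08 and 0.32 ± 0.06 on the log2 scale (SE; adjusted p = 9.37e-05 and 0.000657, edgeR, block), and with Dex, by 0.48 ± 0.08 and 0.32 ± 0.06 (SE; adjusted p = 0.000128 and 0.000548, edgeR, block). The Fcgr1 libraries held 214 to 424 CPM with Cort and 208 to 439.6 CPM with Dex, against 148 to 312 CPM with IL4. Fcer1g was higher with Cort by 0.18 ± 0.06 (SE; adjusted p = 0.0305, edgeR, block). In that fit 44.9% of gene sums were called for Cort and 47.1% for Dex.

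The 10 GR peaks near the receptor genes stood at percentiles 16.2 to 90.5 of all GR peaks by mean count, highest at Fcer1g, and held 0 to 92 reads per library. Of the 10, 9 passed the count filter and 8 lay in an H3K27ac peak. Over all GR peaks 27.6% were called with Cort and 30.3% with Dex against vehicle, and 0% of 5183 with IL4 (617 at an unadjusted p under 0.05). By direction, 661 of all 5183 were higher and 770 lower with Cort, and 761 higher and 810 lower with Dex. None of the 9 was called higher with either steroid, and 1 was lower with Cort and 2 with Dex. None was called with IL4. Between treatments 0% of all peaks were called for Dex against Cort (470 at an unadjusted p under 0.05), 6.69% for Cort against IL4 and 9.18% for Dex against IL4, and of the 9 only 1 was called, lower with Cort than with IL4.

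At Fcgr1, the upstream peak chr3:96300896-96300979 held 4.20, 8.82, 8.17 and 3.87 CPM with vehicle, 3.67, 3.41, 2.80 and 2.79 CPM with Cort, 4.94, 7.19, 4.12 and 5.98 CPM with Dex and 6.09, 7.94 and 8.13 CPM with IL4. All Cort libraries were below all others in CPM, a separation that depended on the scaling between libraries. In reads the peak held 3, 8, 13 and 3 with vehicle and 8, 7, 5 and 5 with Cort. It is 6.93 kb upstream, inside the strongest Fcgr1 H3K27ac peak, and was lower with Cort than with vehicle by a log2 fold change of -1.05 ± 0.34 (SE; adjusted p = 0.0344, edgeR) and than with IL4 by -1.31 ± 0.37 (SE; adjusted p = 0.0462, edgeR). The peak chr3:96284226-96284398, near the 3′ end of the gene, held 14.0, 21.0, 1.89 and 3.87 CPM with vehicle, 4.13, 11.7, 1.68 and 1.12 CPM with Cort, 4.39, 10.6, 0.589 and 0.919 CPM with Dex and 3.38, 2.65 and 3.69 CPM with IL4 (Dex log2 fold change -1.31 ± 0.43, SE; adjusted p = 0.0334, edgeR), with groups that overlapped. The third Fcgr1 peak, chr3:96292291-96292437, held 15.4, 18.8, 3.14 and 3.87 CPM with vehicle, 6.42, 11.2, 3.35 and 1.68 CPM with Cort, 11.5, 11.03, 0 and 1.38 CPM with Dex and 3.38, 0.661 and 4.43 CPM with IL4, and was not called.

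At Fcgr3, chr1:171068098-171068221, 2.18 kb upstream of the gene span, held 2.80, 6.62, 6.28 and 15.5 CPM with vehicle, 6.88, 3.41, 1.12 and 3.35 CPM with Cort, 3.29, 0.959, 3.53 and 1.84 CPM with Dex and 6.76, 3.97 and 5.17 CPM with IL4, so that Dex and vehicle overlapped (Dex log2 fold change -1.68 ± 0.58, SE; adjusted p = 0.0398, edgeR). The peak at the 3′ end, chr1:171050841-171051178, held 7.005, 9.93, 12.6 and 10.3 CPM with vehicle, 13.8, 17.1, 14.5 and 6.70 CPM with Cort, 9.88, 20.6, 10.0 and 12.4 CPM with Dex and 7.44, 8.60 and 11.1 CPM with IL4, and was not called. It lies inside the large Fcgr3 H3K27ac peak that rose with all treatments. Leaving out 1 library ended the Cort call of the upstream Fcgr1 peak in 8 of 15 fits and its call against IL4 in 12, and the Dex calls of chr3:96284226-96284398 in 9 and of chr1:171068098-171068221 in 5 of the 10 that tested it. The 4 calls on GR peaks also depended on the scaling: with scaling by total counts none of them remained, and the change of this 3′ peak with Dex, 0.36 ± 0.35 (SE; adjusted p = 0.465, edgeR), was called at 1.34 ± 0.42 (SE; adjusted p = 0.0205, edgeR). That scaling moved the median of all GR peaks from 0.17 to 0.94 with Cort and from -0.13 to 0.86 with Dex.

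Batches differed at many of these GR peaks. At 5 of the 10, all 6 batch 1 libraries lay above the 6 vehicle, Cort and Dex libraries of batch 2. The share of all GR peaks with this split was not examined, so it cannot be called particular to these genes. The peak at the 3′ end of Fcer1g, chr1:171229550-171229892, held 40.6 and 88.2 CPM with vehicle, 28.4 and 35.1 CPM with Cort and 45.6 and 44.1 CPM with Dex in batch 1. In batch 2 it held 4.40 and 2.58, 5.03 and 2.79, and 0.589 and 7.82 CPM, and 3.31 to 6.76 CPM with IL4. Its Cort change was -0.91 ± 0.36 in batch 1 alone (adjusted p = 0.0523, edgeR) and 0.02 ± 1.00 in batch 2 alone (adjusted p = 0.991, edgeR). The Fcgr3 peak chr1:171051277-171051776 likewise held 11.5 to 61.8 CPM in batch 1 and 2.51 to 6.44 CPM in those libraries of batch 2, and gave -1.201 ± 0.39 with Cort in batch 1 alone (adjusted p = 0.0205, edgeR), 0.32 ± 0.79 in batch 2 alone (adjusted p = 0.81, edgeR) and -0.69 ± 0.48 over both (adjusted p = 0.296, edgeR). The part of batch in these values was not tested.

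The other peaks with this split were chr3:96284226-96284398 and chr3:96292291-96292437 of Fcgr1 and chr1:171029348-171029438 of Fcgr4. The Fcgr4 peak held 2.88 to 11.03 CPM in batch 1 and 0 to 2.58 CPM in batch 2, and gave -1.097 ± 0.78 with Cort and -0.45 ± 0.75 with Dex over both batches (SE; adjusted p = 0.305 and 0.672, edgeR). For the called Fcgr1 peak chr3:96284226-96284398 the Dex change was -1.12 ± 0.50 in batch 1 alone (adjusted p = 0.0824, edgeR), and it was not tested in batch 2 alone, where counts were too low. The upstream Fcgr1 peak gave -1.24 ± 0.54 with Cort in batch 2 alone (adjusted p = 0.158, edgeR) and the upstream Fcgr3 peak -1.99 ± 0.69 with Dex (adjusted p = 0.13, edgeR), and neither was tested in batch 1 alone. At the upstream Fcgr4 peak chr1:170998289-170998465, inside the strongest Fcgr4 H3K27ac peak, GR held 3.87 to 10.1 CPM with vehicle, 4.87 to 14.5 with Cort, 4.80 to 7.13 with Dex and 5.91 to 10.8 with IL4, and all groups overlapped. The only GR peak of Fcgr2b, chr1:170967668-170967743, lay in the gene-body H3K27ac peak that Dex raised, and its 2 to 14 reads per library were too few for the test.

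**Figure D4:**
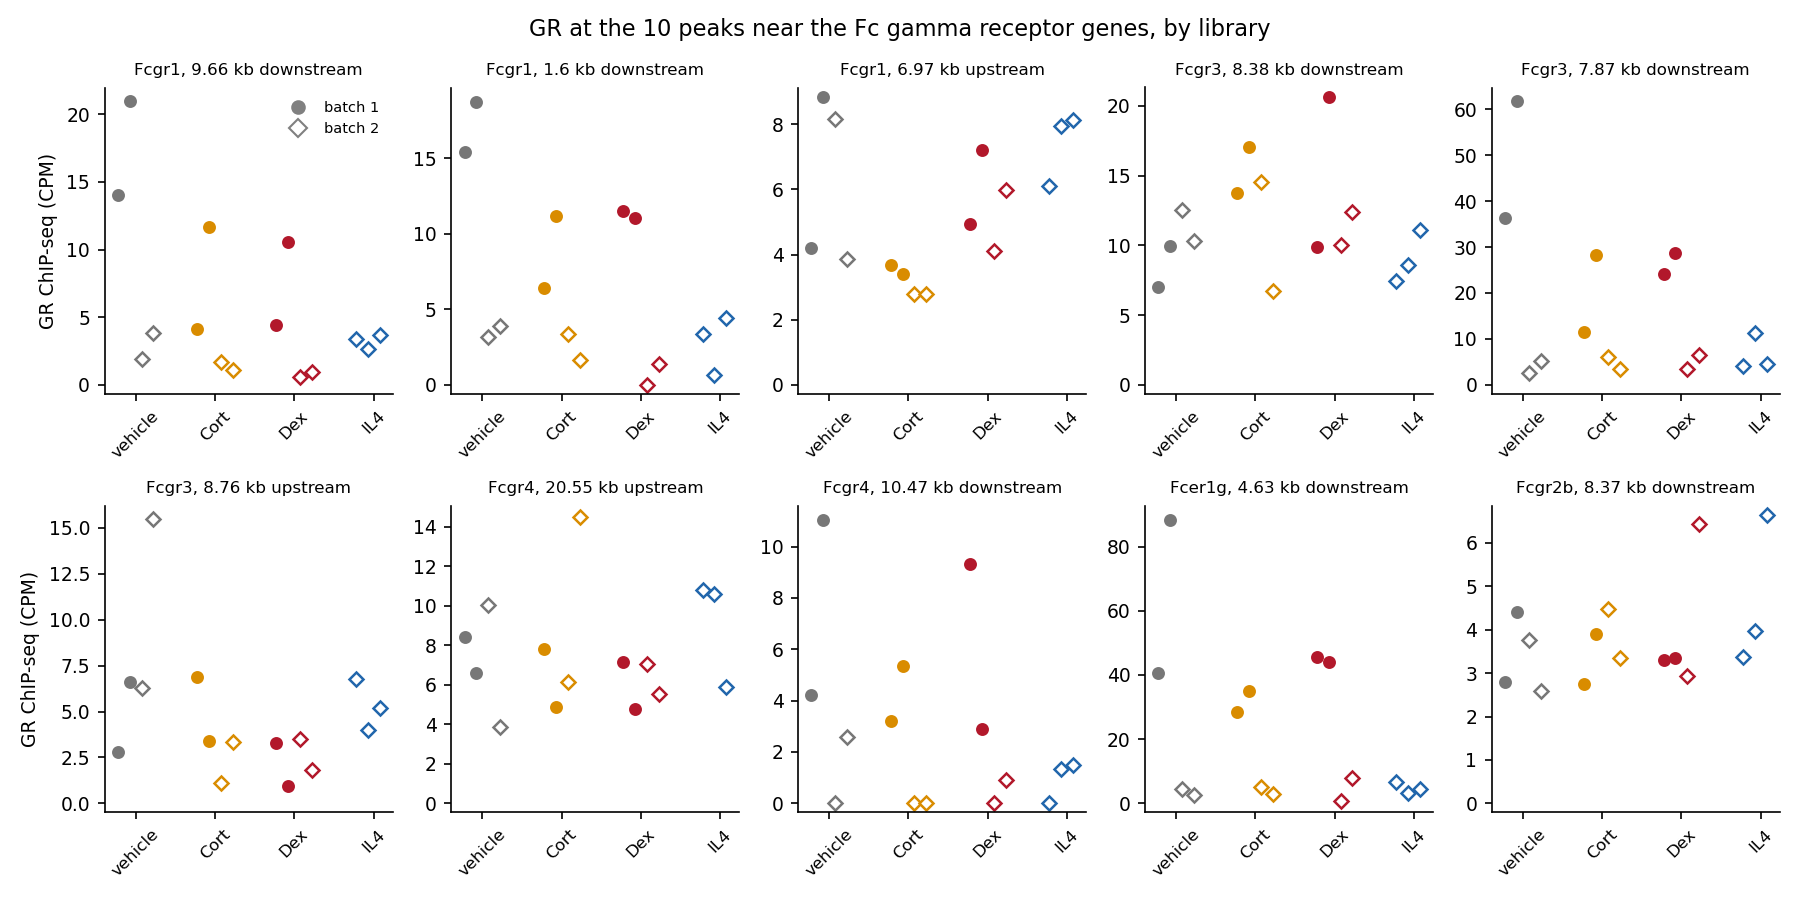
GR signal in CPM (vertical axes) at the 10 peaks near the receptor genes, 1 panel for each, titled by the distance of the peak's middle from the start site. Points are libraries, filled for batch 1 and open for batch 2. At 5 peaks the 6 batch 1 libraries sit above the batch 2 libraries of the same treatments, as at Fcer1g with 28.4 to 88.2 against 0.589 to 7.82.

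Genes of Fc receptor signalling were read from a list of 47, of which 40 had tested H3K27ac peaks, 403 in all. With IL4, 48 of these peaks rose and 89 fell, or 11.9% and 22.1%, and their median log2 fold change was -0.27, where 14.7% of all peaks were called higher and 12.9% lower with a median of -0.02. The Syk, Src-family and PI3-kinase group of activating kinases and adaptors had 27 peaks higher and 62 lower of 282, with a median of -0.32. Inhibitory phosphatases and adaptors, such as Inpp5d (SHIP1) and Ptpn6 (SHP-1), had 7 higher and 8 lower of 56, and NADPH oxidase and phagosome genes 8 and 8 of 36. Related receptors and adaptors had 6 higher and 11 lower of 29. With Cort 6 peaks of the whole list rose and 1 fell, and with Dex 14 rose and 8 fell, with medians of 0.03 and 0.05. These are 1.49% and 0.248% of the list with Cort and 3.47% and 1.99% with Dex, near the shares over all peaks (1.18% and 0.376%, 2.90% and 2.35%). With the block these counts were 34 and 25 for Cort, 52 and 42 for Dex, and 60 and 141 for IL4, in a fit that called 12.6%, 20.3% and 43.5% of all peaks.

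In the activating group, a peak 28.3 kb from Pik3r1 (the regulatory PI3-kinase subunit), chr13:101796507-101797969, held 2.13 ± 0.626 CPM with vehicle (SD, n = 3), 10.4 ± 0.478 with Cort, 14.5 ± 1.44 with Dex and 1.55 ± 0.260 with IL4. Its log2 fold change was 2.30 ± 0.23 with Cort (SE; adjusted p = 0.000207, edgeR) and 2.78 ± 0.23 with Dex (SE; adjusted p = 2.61e-05, edgeR). In Cbl, a ubiquitin ligase that limits receptor signalling, chr9:44204378-44207248 rose from 5.09 ± 0.879 to 27.5 ± 4.33 CPM with IL4 (SD, n = 3; adjusted p = 6.88e-06, edgeR), and did not pass with the steroids. Of the inhibitory adaptors, Dok2 had a peak, chr14:70783330-70786326, that rose from 21.4 ± 1.41 to 59.8 ± 2.08 CPM with IL4, and Dok3 one, chr13:55527099-55529817, that fell from 62.5 ± 10.4 to 27.7 ± 1.70 CPM. Their log2 fold changes were 1.48 ± 0.12 and -1.17 ± 0.15 (SE; adjusted p = 6.12e-06 and 0.000104, edgeR).

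Of the oxidase genes, Ncf4 (a cytosolic oxidase subunit) had a peak, chr15:78263844-78273052, that rose from 26.2 ± 5.85 to 128 ± 9.76 CPM with IL4 (SD, n = 3), a log2 fold change of 2.29 ± 0.22 (SE; adjusted p = 1.71e-05, edgeR). A weak peak 10.0 kb from Rac2, chr15:78582822-78584238, fell from 7.82 ± 4.53 to 1.55 ± 0.700 CPM (SD, n = 3; adjusted p = 0.00414, edgeR). The Fc receptor-like genes Fcrl1 and Fcrl5, known from B cells, had peaks that fell with IL4: chr3:87375451-87378186 from 36.7 ± 4.36 to 12.4 ± 2.10 CPM and chr3:87421757-87425252 from 26.5 ± 13.7 to 3.35 ± 1.23 CPM (SD, n = 3; adjusted p = 4.69e-05 and 0.00121, edgeR). Of the 8 peaks named here, the 7 other than that of Pik3r1 were not called with Cort or Dex.

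For the strongest peak of each member, the genes with the most similar peak were found by Pearson's r of log2 CPM over the 12 H3K27ac libraries. They were sought among 27323 peaks of at least median level, and each other gene was represented by its peak with the highest r. This is a description in which all points share libraries and depth. The Fcgr2b promoter was followed most closely by peaks of Lair1, a collagen-binding inhibitory receptor, and Elmo2 (r = 0.986 and 0.983). For Fcgr1 they were Tmprss2 and Trim30a (0.991 and 0.99), for Fcgr3 Eed and Tbc1d1 (0.985 and 0.97), for Fcgr4 Sec24c and Usp12 (0.974 and 0.971) and for Fcer1g Pip4k2a and Yju2 (0.981 and 0.98). Among the receptor genes themselves, r was 0.877 between Fcgr1 and Fcgr4, 0.891 between Fcgr1 and Fcer1g and 0.724 between Fcgr4 and Fcer1g, the genes with the highest replicate 2 libraries, and -0.469 to 0.278 for all other pairs.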

How the data were processed

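ChIP-seq of H3K27ac (12 libraries) and GR (15 libraries) was analysed; 1 input library was not used here. Per the submitters' processing notes, the authors worked on mm10 with MACS2, featureCounts, Bowtie2, fastp and SAMtools. The authors deposited unnormalised counts, 1 table of peaks for each assay. Versions and the treatment of duplicates, of multiply placed reads and of peak merging are not given in the sources used here, nor is the criterion of a column named filtered, which marks the large Fcgr3 peak FALSE. Columns headed C were taken as vehicle by elimination.

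Peaks were assigned with a RefSeq table of GRCm38.p6. Counts were filtered with filterByExpr, scaled by TMM on counts in peaks and tested with edgeR 4.0.16 (R 4.3.3) by quasi-likelihood F tests fitting all libraries of an assay together, and batch as a further term in the GR model. CPM uses the same scaling. Sums over the peaks of a gene were fitted the same way. A peak or gene was called below an adjusted p of 0.05 (Benjamini-Hochberg, all tested features). Standard errors were derived from the fold change and its F statistic. CPM are counts in peaks scaled to a common library total. The GR IL4 comparison rests on batch 2 and on the batch difference of the other groups. Fits were tested on simulated data. Precision is limited by 3 or 4 libraries a group and, for GR, by reads per peak.

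Same-numbered H3K27ac libraries had residual correlations of 0.268 to 0.678 in 18 pairs (others -0.449 to 0.0406) and were taken as paired, although the labels give only numbers. The main fit has no block, and blocked H3K27ac values stand beside the named results they change. Named peaks were, for each gene, the one with the highest mean count, the one with the smallest p against vehicle and the one nearest the start, all GR peaks (some by range), and 2 peaks of each signalling group. Other Fcgr2b and Fcgr3 peaks with values were named after they were seen. Genes and lists were chosen with earlier results of these data known. Alternatives were other scalings, no count filter, DESeq2 1.42.0, other gene distances, single batches and leaving out each library. The marker lists for NK or T cells, mast cells or basophils and fibroblasts summed to 39.8 to 65.5, 0.931 to 5.05 and 58.5 to 92.4 CPM over the libraries, with signal at 2 of 5, 1 of 5 and 1 of 4 genes. Some items are not reported here.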

Additional observations from a re-analysis of the deposited data

Results flagged for a closer look

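At the GR peak in the body of Fcgr2b, chr1:170967668-170967743, Dex replicate 4 held 6.44 CPM and stood apart from the other 3 Dex libraries, which held 2.94 to 3.36 CPM. The value came from 14 reads. It was the only library to stand apart in this way among 30 groups of 4 GR libraries examined, and chance alone marks about 1 group in 20.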

How the results depend on the processing

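The IL4 result at Fcgr2b and Fcgr3 changed least. IL4 against vehicle gave 10 called H3K27ac peaks, and 10 to 11 when 1 library was left out. Cort gave 1, and 0 to 2 when 1 library was left out, 2 by DESeq2, and 0 with the compared groups alone or with a log2 fold change of at least 1. Dex gave 3, 1 to 4 when 1 library was left out and 0 with a log2 fold change of at least 1. Both steroids gave 7 against IL4, and 7 to 9 when 1 library was left out. With the replicate number as a block the counts were 8 for Cort, 7 for Dex, 18 for IL4, 16 for Cort against IL4 and 18 for Dex against IL4. For GR the numbers did not pair the libraries (residual correlations of -0.462 to 0.174 in 12 pairs), and the block gave 1 peak for Dex; with Cort it lost the upstream Fcgr1 peak (adjusted p = 0.0682, edgeR) and called chr3:96284226-96284398 (adjusted p = 0.0412, edgeR). The GR counts of 1 for Cort, 2 for Dex and 1 for Cort against IL4 each fell to 0 with low-count peak scaling, without a count filter, with the compared groups alone and in batch 2 alone. The compared groups alone tested 5 receptor peaks for each steroid against vehicle and 6 for Cort against IL4, and batch 2 alone tested 6, where the main fit tested 9. The called GR peaks are all marked FALSE, so the fit on peaks marked TRUE, which tested 3, could not call them. With total-count scaling the GR counts were 0, 1 and 0. Without a batch term Dex and Cort against IL4 gave 0, batch 1 alone gave 0 for Dex, DESeq2 gave 0 for Cort against IL4, median-of-ratios scaling gave 2 for Cort, and assignment to all annotated genes left 1 for Dex. Leaving out 1 library gave 0 to 1 for Cort, 0 to 2 for Dex, 0 to 1 for Cort against IL4 and 0 to 1 for Dex against IL4. The log2 ratio of activating over inhibitory genes changed by -0.27 to -0.09 with Cort, -0.32 to -0.07 with Dex and -1.93 to -1.70 with IL4 when 1 library was left out. With Fcgr3 alone it reversed to 0.20 for Cort and 0.24 for Dex and was -1.17 for IL4. With Fcgr1 alone, chosen after seeing the data, it was -0.38 for Cort and -2.20 for IL4. The cause of these changes was not tested. GR reads per peak limit what could be detected.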
